A study of Mus musculus with 6 samples.

Results

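The BCL2 family genes examined were Bax, Bak1, Bcl2, Bcl2l1, Mcl1, Bcl2l11, Bbc3, Pmaip1, Bid and Bcl2a1b, a set of 10 named genes among the 24421 gene symbols of the count table. They were picked by symbol as the best-known actors of mitochondrial apoptosis, without a threshold but with earlier results of these data known. All 10 were found and passed the filter on low counts. The libraries came from engineered skeletal muscle built from C2C12 cells, a mouse myoblast line, suspended in type I collagen around artificial tendons and differentiated in horse serum. One group of 3 constructs received TNF-alpha at 100 ng/mL for 72 h and the other group of 3 received the vehicle PBS. No genetic change is named in the labels for either group, and all constructs come from 1 established cell line, so the spread between them is that of constructs of that line. The labels number the constructs as biological replicates without saying whether they came from separate cell batches, so p-values measure only the spread between these 6 libraries.

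BCL2 family proteins decide whether the outer mitochondrial membrane stays intact. Survival proteins (BCL2, BCL-XL from Bcl2l1, MCL1 and A1 from the Bcl2a1 genes) hold back the effectors BAX and BAK, which otherwise form pores that release cytochrome c and lead to caspase activation. BH3-only proteins (BIM from Bcl2l11, PUMA from Bbc3, NOXA from Pmaip1 and BID) sense damage or withdrawn survival signals and either block the survival proteins or activate the effectors. In cells stimulated with TNF, the death receptor arm reaches mitochondria when caspase-8 cuts BID, while NF-kB raises survival genes such as Bcl2a1 and Bcl2l1. Much of the family is regulated at the protein level, by cleavage, phosphorylation and rapid turnover, which a transcript count does not see. Splice forms with opposite activity, such as the long and short forms of BCL-X, are not separated in a count per gene.

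The libraries held 81713008 to 93533748 counts. Muscle markers were abundant in all of them, with a summed level of 8 myotube genes (Myog, Ckm, Acta1, Tnnt3, Tnnc2, Myh3, Myh1 and Des) between 11280 and 13019 CPM (a gene's count relative to the scaled library size) in vehicle libraries and between 7018 and 8094 CPM in TNF-alpha libraries. Falls were called for 6 of them, and the differentiation factor gene Myog was the 1 that rose. The summed level of 6 markers of dividing or undifferentiated cells was 216 to 332 CPM with vehicle and 33.2 to 103 CPM with TNF-alpha (5 fell, 1 rose). Of 4 fibroblast-type markers, 3 fell and 1 rose, and their sum, most of it Col3a1, went from between 6103 and 6648 CPM to between 4281 and 5237 CPM. The summed level of 8 leukocyte markers was 5.67 to 5.89 CPM with vehicle and 21.2 to 22.9 CPM with TNF-alpha, most of it Cd68. Of the 5 leukocyte markers tested, 3 rose (Cd68 4.13-fold, Csf1r 5.82-fold and Lyz2 2.39-fold) and 0 fell. Ptprc, the pan-leukocyte gene, had 2 to 4 counts in vehicle libraries and 0 in all 3 TNF-alpha libraries. Endothelial markers (4 genes, of which 3 were tested and 1 fell) summed to 2.49 to 3.63 CPM with vehicle and 1.32 to 1.59 CPM with TNF-alpha, and the 4 adipocyte markers, of which 1 was tested and rose, stayed under 1 CPM in sum. The part of these shifts in the values below was not tested, and in bulk RNA fewer cells of a type and less RNA per cell cannot be told apart.

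Across the table, 8769 of 15792 tested genes (55.5%) changed between the groups (edgeR quasi-likelihood test, adjusted p under 0.05 after Benjamini-Hochberg), with 27.6% rising and 27.9% falling. Among the 10 family members there were 6 rises and 2 falls, and 2 did not pass. Bcl2a1b passed the count filter only through the TNF-alpha libraries, and is therefore left out of the median and the count of separate groups below. Among the other 9, 5 rose (Bcl2l11, Bax, Bcl2l1, Mcl1 and Bak1), 2 fell (Bbc3 and Bcl2) and 2 were not past the test (Pmaip1 and Bid). Their median log2 fold change was 0.25, against 0.005 over all tested genes. In 7 of these 9 the libraries of the groups did not overlap, which was so for 64.5% of all tested genes (TNF-alpha above in 32.6% and below in 31.9%). Changes among these members ran in both directions inside each functional class except the effectors, which both rose.

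Of the 4 survival genes among the members, Mcl1 and Bcl2l1 rose, Bcl2 fell and Bcl2a1b was detected in the TNF-alpha libraries alone. Mcl1 (GRCm38 chromosome 3, 95658788 to 95663176, plus strand) encodes a short-lived survival protein that holds BAK and BIM. It stood at 235, 244 and 241 CPM in vehicle replicates 1 to 3 and at 335, 326 and 315 CPM in the TNF-alpha replicates. Every TNF-alpha library was above every vehicle library, and the groups were tight, with SDs of 4.42 and 9.92 CPM. Mcl1 rose 1.35-fold (log2 fold change 0.44 ± 0.06 SE, edgeR adjusted p = 2.76e-04, n = 3 per group).

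Bcl2l1 (chromosome 2, 152780668 to 152831728, minus strand) encodes BCL-XL, a survival protein of long-lived cells. Its levels were 68.9, 78.2 and 80.7 CPM with vehicle and 129, 120 and 121 CPM with TNF-alpha. The lowest TNF-alpha library was far above the highest vehicle library. Bcl2l1 rose 1.62-fold (0.70 ± 0.07, edgeR adjusted p = 6.88e-05, n = 3 per group), the largest rise among the 3 survival members expressed in both groups.

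Bcl2 (chromosome 1, 106538178 to 106714274, minus strand), the founding survival gene of the family, went the other way. It stood at 24.4, 22.6 and 24.0 CPM with vehicle and at 17.6, 14.4 and 13.3 CPM with TNF-alpha. TNF-alpha replicate 1 was the highest of its group and still below every vehicle library. Bcl2 fell 1.57-fold (-0.65 ± 0.11, edgeR adjusted p = 9.64e-04, n = 3 per group). The interval of its log2 fold change, -0.89 to -0.40 (95%), and that of Bcl2l1, 0.53 to 0.86, lie on opposite sides of 0.

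Bcl2a1b (chromosome 9, 89199209 to 89207827, plus strand) encodes A1, an NF-kB-dependent survival protein best known from blood cells. It had 0 counts in all 3 vehicle libraries and 14.7, 10.7 and 14.7 counts in the TNF-alpha libraries, or 0.152 ± 0.026 CPM (SD, n = 3). Set against a floor of 3 counts per vehicle library, this is at least 4.54-fold higher. Its copies Bcl2a1a and Bcl2a1d lie on the same chromosome, and their GENCODE transcripts share 97.9% and 93.9% of aligned bases with that of Bcl2a1b. All 3 copies had counts with decimals in 3 libraries, which makes their separate values uncertain. Summed over the 3 copies, the vehicle libraries had 0, 0 and 6 counts and the TNF-alpha libraries 26.0, 28.0 and 21.0. The groups did not overlap in this sum either. The fourth copy, Bcl2a1c, had 0 counts in every library. Of the leukocyte markers, 3 of 5 tested rose beside it: Cd68 (397, 454 and 443 counts with vehicle, 1859, 1763 and 1599 with TNF-alpha), the macrophage receptor gene Csf1r (22, 20 and 24 against 110, 144 and 122) and Lyz2 (12, 14 and 9 against 36, 30 and 17). Itgam and Cd79a did not pass the test, Ptprc and Cd3e had 0 counts in all 3 TNF-alpha libraries and Adgre1 had 0 to 2. The part of leukocyte-type RNA in the Bcl2a1b counts was not tested.

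A stretch of 67 bases from the promoter of each copy, cut around a shared motif, is shown. These stretches overlap no GENCODE exon, so they do not bear on whether reads of the copies can be told apart. The sequences are RefSeq's on GRCm38.p6, 5′ to 3′ on the gene's strand, and the capitals mark a match to the AP-1 motif TGANTCA, which reads the same on both strands. They lie at chr9:88956770-88956836 (plus), chr9:89199079-89199145 (plus) and chr9:88731928-88731994 (minus).
Bcl2a1a: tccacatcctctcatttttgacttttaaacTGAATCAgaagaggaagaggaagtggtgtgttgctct
Bcl2a1b: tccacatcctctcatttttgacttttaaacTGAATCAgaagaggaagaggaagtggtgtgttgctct
Bcl2a1d: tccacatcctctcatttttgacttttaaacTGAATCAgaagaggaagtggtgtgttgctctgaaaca
The match begins 120, 164 and 114 bases before the start of Bcl2a1a, Bcl2a1b and Bcl2a1d. The stretches of Bcl2a1a and Bcl2a1b are the same letter for letter, and that of Bcl2a1d differs from them after the motif. The whole windows of 250 bases rank otherwise. Bcl2a1a and Bcl2a1d shared 93.0% of aligned bases, Bcl2a1a and Bcl2a1b 69.7%, and Bcl2a1b and Bcl2a1d 66.0%. An AP-1 match was present in 6.75% of the 32851 promoter windows of 250 bases, so its presence here is a description and no evidence of binding.

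**Figure D1:**
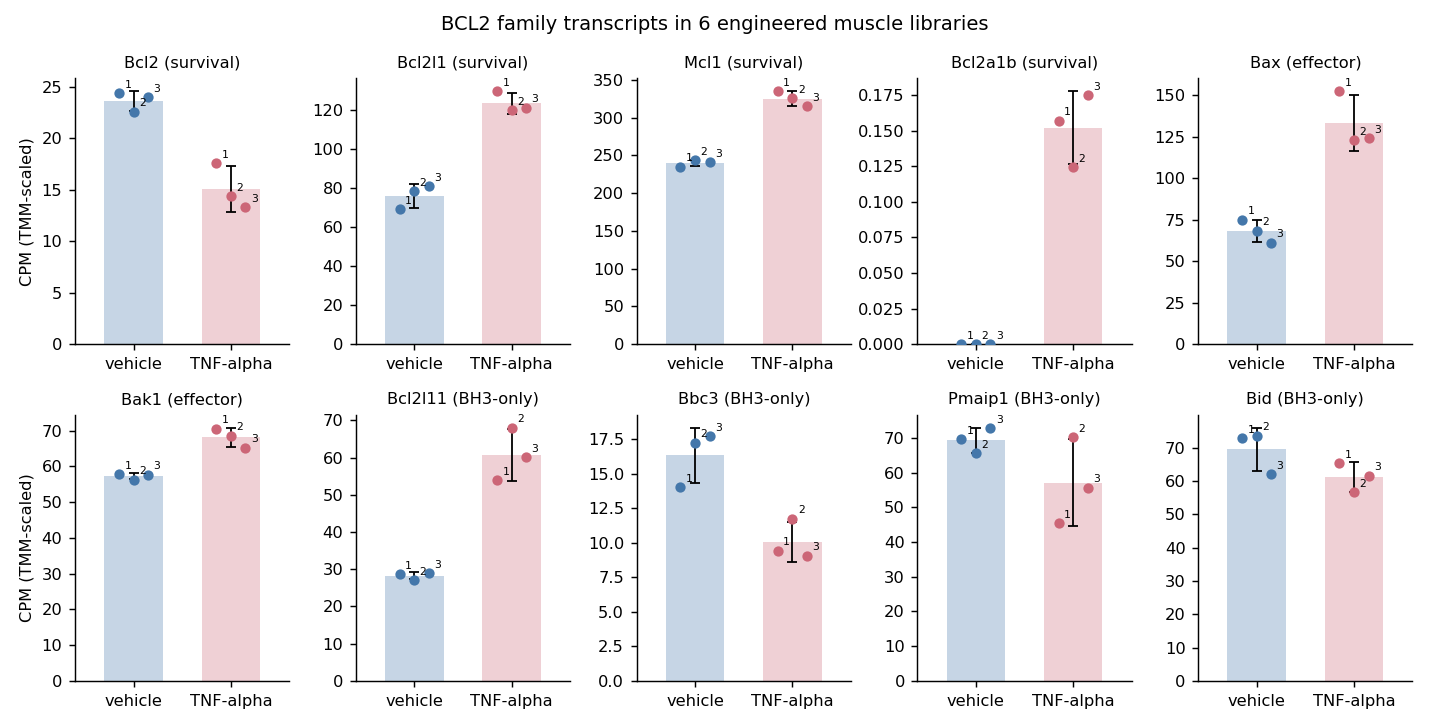
Level of each of the 10 BCL2 family transcripts in CPM, scaled with TMM (vertical axes start at 0 and differ between panels), in 3 vehicle and 3 TNF-alpha libraries. Points are libraries with their replicate number, bars are means and error bars the SD. Bcl2 and Bbc3 lie lower with TNF-alpha, Pmaip1 and Bid overlap between groups, and the other 6 lie higher.

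Both pore-forming effectors among the members rose, by different amounts. Bax (chromosome 7, 45461697 to 45466898, minus strand), which moves from the cytosol to mitochondria when activated, stood at 75.0, 68.5 and 61.2 CPM with vehicle and at 153, 123 and 124 CPM with TNF-alpha. All TNF-alpha libraries were well above the vehicle libraries, with replicate 1 highest in both groups. Bax rose 1.95-fold (0.97 ± 0.11, edgeR adjusted p = 1.07e-04, n = 3 per group). Bak1 (chromosome 17, 27019810 to 27029009, minus strand), whose product sits in the mitochondrial membrane, stood at 57.8, 56.3 and 57.7 CPM with vehicle and at 70.5, 68.6 and 65.2 CPM with TNF-alpha. The groups did not overlap, and the spread was small (SDs of 0.868 and 2.70 CPM). Bak1 rose 1.19-fold (0.25 ± 0.06, edgeR adjusted p = 0.00481, n = 3 per group). The 95% intervals of the log2 fold changes, 0.73 to 1.21 for Bax and 0.12 to 0.38 for Bak1, do not overlap. Bak1 shares exons on the opposite strand with Ggnbp1, which had 94 to 292 counts per library, few beside the counts of Bak1. Bax and Bcl2a1b overlap exons of Gm45808 and Gm29094 on the same strand. In the wider family, Bcl2l2 and Bcl2l15 do so with Gm20521 and Gm43064. These Gm genes are not among the gene symbols counted, and reads that may be shared with them were not examined.

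The Bax promoter is shown because Bax is a textbook target of p53, the tumour suppressor that responds to DNA damage. The 250 bases before the RefSeq start on GRCm38.p6, chr7:45466899-45467148, minus strand, read as follows, with the match to the p53 decamer consensus in capitals.
Bax: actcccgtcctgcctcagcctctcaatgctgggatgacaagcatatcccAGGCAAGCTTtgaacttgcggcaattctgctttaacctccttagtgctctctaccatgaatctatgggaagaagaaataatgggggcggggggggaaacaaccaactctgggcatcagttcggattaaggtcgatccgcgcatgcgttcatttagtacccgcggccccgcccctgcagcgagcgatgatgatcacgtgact
The match begins 201 bases before the start. Such a decamer, which occurs as a pair in p53 response elements, was found in 7.13% of all promoter windows (both strands searched), and among the 14 windows of the 9 members with an entry it was found in that of Bax alone. The p53 gene itself, Trp53, had 92.7, 94.4 and 90.4 CPM with vehicle and 103, 90.0 and 89.9 CPM with TNF-alpha, and was not past the test (0.03 ± 0.07, edgeR adjusted p = 0.736).

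The BH3-only genes moved apart. Bcl2l11 (chromosome 2, 128126038 to 128162547, plus strand) encodes BIM, which binds every survival protein and can activate BAX and BAK. It stood at 28.7, 27.1 and 28.9 CPM with vehicle and at 53.8, 68.0 and 60.2 CPM with TNF-alpha. All TNF-alpha libraries lay far above the vehicle libraries, with replicate 2 highest. Bcl2l11 rose 2.15-fold (1.10 ± 0.09, edgeR adjusted p = 1.54e-05, n = 3 per group), with a 95% interval of 0.90 to 1.30 that overlaps that of Bax.

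The Bcl2l11 promoter is shown because BIM is a textbook target of FOXO3, a forkhead factor active when growth factor signalling is low. The 250 bases before the RefSeq start on GRCm38.p6, chr2:128125788-128126037, plus strand, are given with the forkhead motif GTAAACA in capitals.
Bcl2l11: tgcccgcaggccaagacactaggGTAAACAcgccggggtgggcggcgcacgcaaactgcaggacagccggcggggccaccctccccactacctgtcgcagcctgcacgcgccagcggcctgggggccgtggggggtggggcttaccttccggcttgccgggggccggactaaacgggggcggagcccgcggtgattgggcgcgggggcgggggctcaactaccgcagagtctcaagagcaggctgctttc
The motif begins 227 bases before the start. It was present on either strand in 3.17% of the 32851 windows and, among the members, also in 1 window of Bbc3, which fell. In the same libraries Foxo3, a gene picked with its values known, rose 1.87-fold (26.1, 32.6 and 28.5 CPM with vehicle, 44.1, 59.1 and 60.0 CPM with TNF-alpha, edgeR adjusted p = 7.52e-04), and Foxo1 fell 1.41-fold (74.0, 93.9 and 98.7 CPM against 61.3, 65.4 and 62.8 CPM, edgeR adjusted p = 0.00357). An NF-kB consensus match was found in 3.9% of all windows, and among the members in 1 window of Bcl2l1 and 1 of Bbc3, of which one rose and the other fell. The p53 match among the members was in Bax, which rose. The AP-1 match was in Bcl2a1b, which was detected in the TNF-alpha libraries alone. Outside the members, Bmf, which fell, also had a p53 match, beginning 213 bases before its start. These genes are too few to relate matches to a direction of change, and no such relation was tested.

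Bbc3 (chromosome 7, 16308393 to 16318205, plus strand) encodes PUMA, another binder of all survival proteins and a textbook target of p53. Its levels were 14.0, 17.2 and 17.7 CPM with vehicle and 9.42, 11.7 and 9.08 CPM with TNF-alpha. The ranges were separate, although vehicle replicate 1 and TNF-alpha replicate 2 came close. Bbc3 fell 1.62-fold (-0.70 ± 0.13, edgeR adjusted p = 0.00194, n = 3 per group). Bcl2l11 and Bbc3, whose products share most of their binding partners, thus had intervals on opposite sides of 0 (0.90 to 1.30 and -0.99 to -0.40).

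Pmaip1 (chromosome 18, 66458533 to 66465565, plus strand) encodes NOXA, which binds mainly MCL1. It stood at 69.7, 65.6 and 72.7 CPM with vehicle and at 45.4, 70.3 and 55.7 CPM with TNF-alpha. TNF-alpha replicate 2 lay inside the vehicle range and the other two lay below it. Pmaip1 was not past the test (-0.28 ± 0.15, 95% interval -0.63 to 0.06, edgeR adjusted p = 0.145), and without TNF-alpha replicate 2 it was (-0.46, adjusted p = 0.00677), over a range of adjusted p from 0.00677 to 0.294. Bid (chromosome 6, 120891930 to 120916853, minus strand) encodes the protein that caspase-8 cuts to carry a death receptor signal to mitochondria. Its levels were 72.8, 73.6 and 61.9 CPM with vehicle and 65.4, 56.6 and 61.6 CPM with TNF-alpha. Vehicle replicate 3 lay among the TNF-alpha libraries. Bid was not past the test (-0.18 ± 0.08, 95% interval -0.37 to 0.01, edgeR adjusted p = 0.0959), and without vehicle replicate 3 it was (-0.26, adjusted p = 0.0178), over a range from 0.0178 to 0.261. Bid overlaps an exon of Bcl2l13 on the opposite strand, so part of its reads may be shared where counting ignored strand.

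Levels of different genes were compared per length, as CPM per kilobase of merged exons. With vehicle the order was Mcl1 (70.2 ± 1.29), Bax (43.3 ± 4.38), Pmaip1 (25.4 ± 1.31), Bak1 (23.8 ± 0.36), Bid (19.6 ± 1.83), Bcl2l1 (16.6 ± 1.36), Bbc3 (7.68 ± 0.94), Bcl2l11 (3.51 ± 0.12) and Bcl2 (2.58 ± 0.10), with Bcl2a1b at 0 (SD, n = 3). In this order the libraries of Pmaip1 overlapped those of Bak1 and those of Bid overlapped those of Bcl2l1, while the other neighbours were separate. With TNF-alpha the order was Mcl1 (95.1 ± 2.90), Bax (84.6 ± 10.6), Bak1 (28.3 ± 1.12), Bcl2l1 (26.9 ± 1.17), Pmaip1 (20.9 ± 4.57), Bid (17.2 ± 1.24), Bcl2l11 (7.56 ± 0.88), Bbc3 (4.75 ± 0.68), Bcl2 (1.65 ± 0.24) and Bcl2a1b (0.186 ± 0.031). Here the libraries of Mcl1 and Bax overlapped, as did those of Bak1 and Bcl2l1 and those of Pmaip1 and Bid. Bcl2l11 and Bbc3 changed places between the groups. With the length of the longest transcript in place of merged exons, Bax (121 per kilobase) stood above Mcl1 (95.1) with TNF-alpha. Bcl2l1 (48.0) then stood above Bak1 (28.5), and Bid (25.3) above Pmaip1 (20.9), also with TNF-alpha. With vehicle, Bax was followed by Bcl2l1 (29.6), Bid (28.7), Pmaip1 (25.4) and Bak1 (24.0), so these positions depend on the gene model in both groups.

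Summed by role over the 10 members, the survival genes went from 89.4 ± 2.49 to 124 ± 4.11 CPM per kilobase and the effectors from 67.1 ± 4.41 to 113 ± 11.5. The BH3-only genes had 56.1 ± 0.12 and 50.4 ± 4.81 (SD, n = 3, given as a description with no test). Genes of the wider family, among them Bok, Bcl2l2, Bad and Bmf, are not in these sums. In the vehicle libraries the BH3-only sum was 56.2, 56.2 and 56.0, and in the TNF-alpha libraries 46.2, 55.7 and 49.5. With merged exons the groups did not overlap in any of the 3 sums, although for the BH3-only genes TNF-alpha replicate 2 lay just below the vehicle libraries. With the longest transcript as gene length, the BH3-only sum of TNF-alpha replicate 2 lay inside the vehicle range, so that separation depends on the gene model. Within the survival sum Mcl1 made up 78.6% ± 0.91 with vehicle and 76.8% ± 0.54 with TNF-alpha, Bcl2l1 18.5% ± 1.03 and 21.7% ± 0.45, and Bcl2 2.89% ± 0.18 and 1.33% ± 0.15. Within the effector sum, which holds Bax and Bak1 alone, the share of Bax went from 64.4% ± 2.37 to 74.8% ± 1.79. Bok, a BAX-like effector outside the members, had 31.6 ± 1.10 CPM per kilobase with vehicle and 15.8 ± 0.92 with TNF-alpha, so the share depends on leaving it out. Within the BH3-only sum the share of Bcl2l11 went from 6.26% ± 0.22 to 15.0% ± 0.38 and that of Bbc3 from 13.7% ± 1.69 to 9.39% ± 0.68, whereas Pmaip1 (45.2% ± 2.42 and 41.1% ± 5.11) and Bid (34.8% ± 3.19 and 34.5% ± 5.64) overlapped between groups. BIM transcripts thus remained a minor part of the BH3-only sum in both groups.

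The ratio of Bax to Bcl2, a common summary of the family chosen here after the values were seen, was 17.9, 17.6 and 14.8 per length with vehicle and 50.5, 49.7 and 54.3 with TNF-alpha. This is a 3.07-fold difference of the means in which no library overlapped, and it combines a rise of one gene with a fall of the other. Against Bcl2l1 in place of Bcl2, the ratio of Bax was 3.17, 2.55 and 2.21 with vehicle and 3.43, 3.0 and 2.99 with TNF-alpha, and the groups overlapped. The ratio of Bcl2l11 to Bcl2l1 was 0.238, 0.198 and 0.204 with vehicle and 0.238, 0.325 and 0.284 with TNF-alpha, where TNF-alpha replicate 1 stood level with vehicle replicate 1. Separation of the Bax to Bcl2 ratio follows from Bax being higher and Bcl2 lower in every TNF-alpha library. Bcl2l1 rose, as Bax and Bcl2l11 did, so these ratios restate the changes of the single genes.

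**Figure D2:**
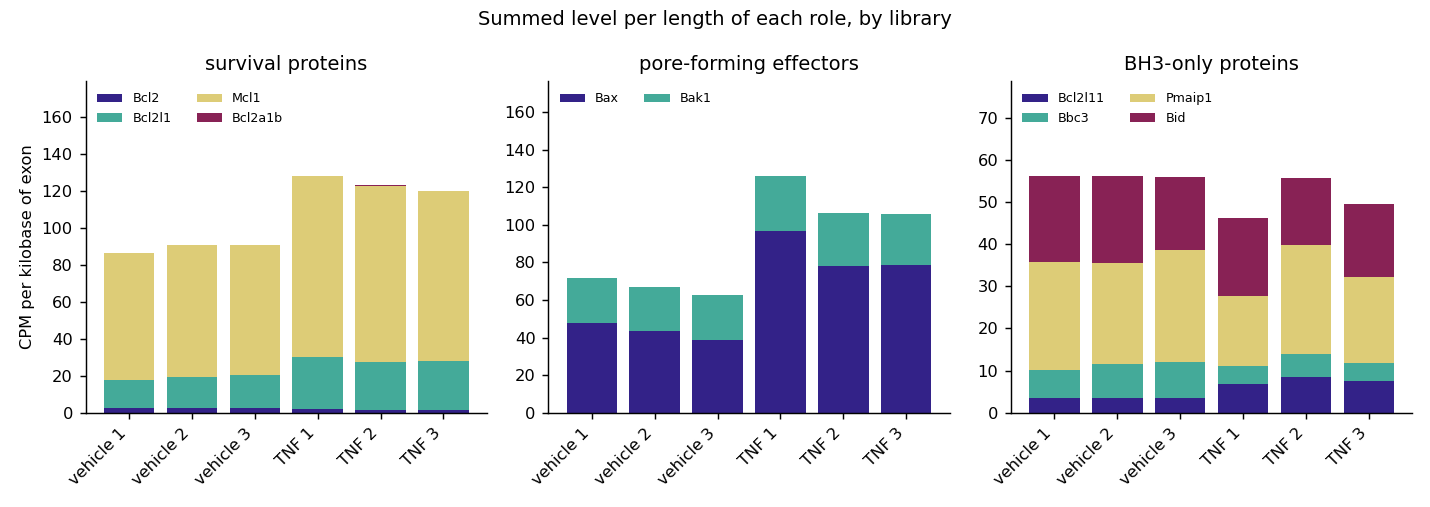
Summed level of the survival, effector and BH3-only genes among the 10 members in CPM per kilobase of merged exons (vertical axes start at 0 and differ), 1 stacked bar per library, coloured by gene. The survival and effector stacks are higher in all 3 TNF-alpha libraries, and the BH3-only stacks are between 46.2 and 56.2 throughout with a wider Bcl2l11 part under TNF-alpha.

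Of 16 other genes of the wider BCL2 family, 11 passed the filter on low counts, with 4 rises, 4 falls and 3 that did not pass, so that 8 of 11 changed against 55.5% of all tested genes (median log2 fold change -0.12). Bnip3 and Bnip3l encode BH3-like mitophagy receptors, which tag mitochondria for degradation and are known to respond to low oxygen. Bnip3 stood at 93.9, 99.4 and 220 CPM with vehicle and at 692, 561 and 596 CPM with TNF-alpha. Vehicle replicate 3 was far above the other vehicle libraries and still well below the TNF-alpha group. Bnip3 rose 4.47-fold (2.16 ± 0.37, edgeR adjusted p = 0.00382), and by 2.67 on the log2 scale without vehicle replicate 3. Bnip3l rose 2.67-fold, from 136, 121 and 158 CPM to 400, 348 and 360 CPM (1.42 ± 0.10, edgeR adjusted p = 1.05e-05). Bcl2l2, which encodes the survival protein BCL-W, rose 1.65-fold, from 55.9, 60.4 and 56.0 CPM to 93.9, 94.9 and 94.9 CPM (0.72 ± 0.06, edgeR adjusted p = 1.38e-05). Its fold was close to that of Bcl2l1, with 95% intervals of 0.59 to 0.85 and 0.53 to 0.86. Bcl2l15, expressed at a low level, rose from 0.599, 0.560 and 0.601 CPM to 1.65, 2.17 and 1.38 CPM (edgeR adjusted p = 4.79e-04).

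Among the falls, Bmf, a BH3-only gene whose product is tethered to the cytoskeleton, had the steepest. It went from 15.9, 16.6 and 12.9 CPM to 2.85, 5.98 and 4.86 CPM, a 3.32-fold fall (-1.73 ± 0.26, edgeR adjusted p = 0.00108). Bok, a BAX-like effector, fell 1.99-fold, from 56.1, 60.1 and 58.0 CPM to 27.3, 30.6 and 29.5 CPM (-0.99 ± 0.07, edgeR adjusted p = 5.67e-06). Of the 3 effector genes, Bax and Bak1 thus rose and Bok fell, each with groups that did not overlap. Bad, a BH3-only gene whose product is silenced by AKT phosphorylation, fell from 33.5, 32.5 and 30.8 CPM to 28.8, 26.8 and 25.8 CPM (-0.25 ± 0.07, edgeR adjusted p = 0.0147). The Bad call was lost without vehicle replicate 1 (adjusted p = 0.0523) and without TNF-alpha replicate 3 (0.0638), all alternatives giving 0.00577 to 0.0638. Bad shares exons on the opposite strand with Gpr137, which had 2160 to 3030 counts. Bcl2l14, under 1 CPM in every library, fell with an adjusted p of 0.0257, which was 0.0625 and 0.0983 without vehicle replicates 1 and 3 and 0.0655 and 0.0854 without the first or second TNF-alpha library, all alternatives giving 0.0137 to 0.0983. Without vehicle replicate 1, 2 genes of this list fell and not 4. Bik (-0.19 ± 0.26), Bcl2l12 (-0.07 ± 0.11) and Bcl2l13 (-0.12 ± 0.07) were not past the test, although every TNF-alpha library of Bcl2l12 was below the vehicle libraries. Bcl2l12 shares exon sequence on the opposite strand with Irf3, which had 2004 to 3464 counts, and with Gm15545, which had 147 to 201. Hrk, Bcl2l10, Bcl2a1a, Bcl2a1c and Bcl2a1d had too few counts to test.

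**Figure D3:**
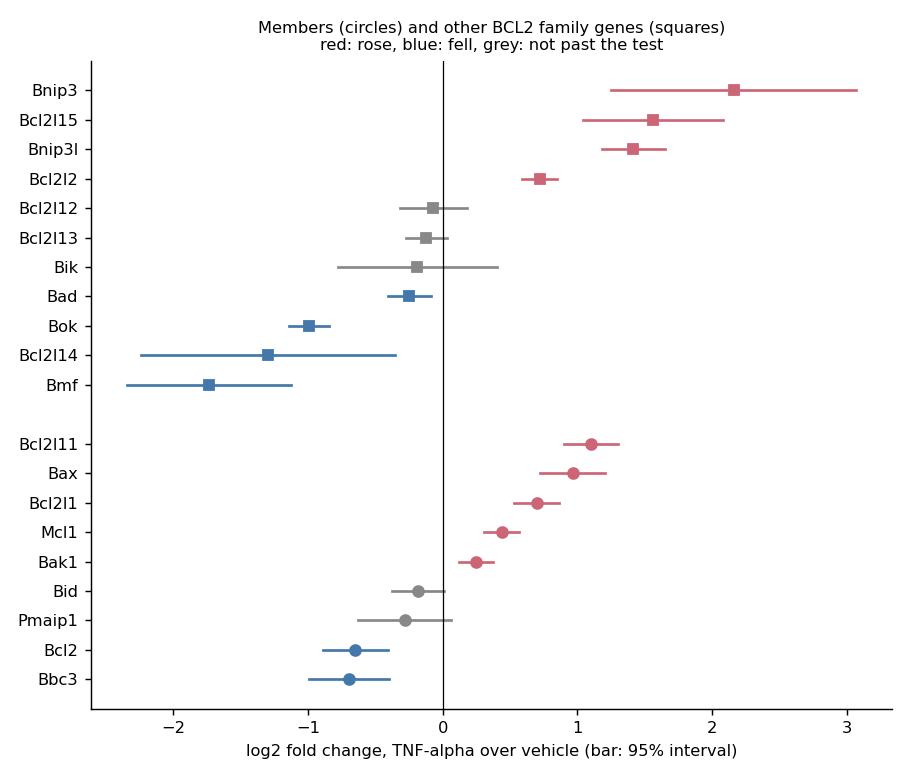
Log2 fold change of TNF-alpha over vehicle with its 95% interval for the 9 members with counts in both groups (circles) and the 11 tested genes of the wider family (squares), sorted within each set. Red points rose, blue points fell and grey points were not past the test, and Bcl2a1b is left out because its vehicle libraries were at 0.

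Upstream of the family, the death receptor arm held 10 genes, with 5 rises, 0 falls and 5 that did not pass (median log2 fold change 0.35). The share called, 5 of 10, is near the 55.5% of all genes, made up of 27.6% rising and 27.9% falling. Tnfrsf10b, the mouse TRAIL receptor, rose 3.60-fold, from 18.2, 19.7 and 17.5 CPM to 69.1, 68.1 and 62.5 CPM (edgeR adjusted p = 4.03e-07). Ripk1, the kinase that turns TNF receptor signalling toward survival or death, rose 1.41-fold, from 44.9, 42.9 and 44.2 CPM to 60.8, 63.1 and 62.5 CPM (edgeR adjusted p = 8.76e-05). Of the genes that restrain caspase-8, Cflar, encoding FLIP, rose 1.36-fold (edgeR adjusted p = 0.00204) and Birc3, encoding cIAP2, rose 2.90-fold from a low level of 1.51 to 2.53 CPM (edgeR adjusted p = 1.88e-04), both chosen after their values were seen. Birc2, encoding the related cIAP1, did not pass the test (0.05 ± 0.10, edgeR adjusted p = 0.717). Casp8 itself was among the 5 not past the test, with a log2 fold change of -0.04 ± 0.08. The count of risers was 5 or 6 under each alternative.

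Downstream, 16 genes of the mitochondrial arm were tested, with 5 rises, 5 falls and 6 that did not pass (median -0.12), against 27.6% rising and 27.9% falling over all tested genes. The rises were led by Vdac1, the outer membrane channel, from 328, 322 and 347 CPM to 590, 496 and 538 CPM (1.63-fold, edgeR adjusted p = 1.05e-04), and by the nuclease gene Endog, from 6.88, 7.72 and 7.46 CPM to 11.96, 10.04 and 11.49 CPM (1.52-fold, edgeR adjusted p = 0.00129). Apaf1, the scaffold of the apoptosome and also picked with its values known, rose 1.38-fold (edgeR adjusted p = 0.00842). Cycs, encoding cytochrome c, fell 1.30-fold, from 167, 133 and 144 CPM to 121, 114 and 106 CPM (edgeR adjusted p = 0.00685), and Aifm1, encoding apoptosis-inducing factor, fell 1.21-fold, from 51.0, 48.8 and 47.4 CPM to 41.9, 39.0 and 40.4 CPM (edgeR adjusted p = 0.00393). The fall of Cycs was the steepest of the 5. The number of falls was 2 without vehicle replicate 1 or TNF-alpha replicate 3, and 3 without vehicle replicate 3. The caspase inhibitor gene Xiap, chosen after its values were seen, fell 1.19-fold (edgeR adjusted p = 0.0169) and lost its call without vehicle replicate 1 (0.061) or TNF-alpha replicate 3 (0.0549), all alternatives giving 0.00996 to 0.061.

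Of 14 transcription factors known to act on BCL2 family genes, 11 rose, 1 fell and 2 did not pass (median 0.72), against 27.6% and 27.9% of all tested genes. Nfkb1 rose 2.37-fold (115, 131 and 113 CPM against 295, 270 and 287 CPM, edgeR adjusted p = 3.3e-06) and Rela, its partner subunit in NF-kB, rose 1.98-fold (96.4, 101 and 112 CPM against 218, 193 and 203 CPM, edgeR adjusted p = 1.35e-05). Ddit3, encoding the stress factor CHOP, was chosen after its values were seen and rose 1.61-fold, from 41.8, 36.3 and 41.9 CPM to 70.4, 61.2 and 61.8 CPM (edgeR adjusted p = 1.54e-04). Foxo1 was the one that fell, and Trp53 and Stat5a were not past the test. The list was chosen with earlier results of these data known, and no relation between these factors and the members was tested.

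Of 14 genes that act on BCL2 family proteins after translation, 5 rose, 4 fell and 5 did not pass (median 0.06), beside 27.6% and 27.9% of all tested genes. Fbxw7, a ubiquitin ligase subunit that sends MCL1 for degradation, fell 1.77-fold, from 66.4, 72.3 and 72.2 CPM to 41.3, 39.0 and 39.2 CPM (edgeR adjusted p = 1.1e-05). Akt1, a survival kinase that phosphorylates BAD, fell 1.52-fold, from 301, 322 and 319 CPM to 211, 200.5 and 207 CPM (edgeR adjusted p = 4.8e-05). Pim3, another kinase of BAD, rose 1.57-fold, from 30.5, 33.9 and 31.1 CPM to 49.6, 47.9 and 52.3 CPM (edgeR adjusted p = 6.77e-05). Trim17, a ubiquitin ligase described for MCL1, rose 2.57-fold from a low level, 0.504, 1.05 and 0.576 CPM against 1.83, 1.90 and 1.75 CPM (edgeR adjusted p = 0.0031). The MCL1 ligase gene Huwe1 and the deubiquitinase gene Usp9x were not past the test, with log2 fold changes of 0.04 ± 0.06 and 0.08 ± 0.08. These are transcript levels, and neither protein amount, phosphorylation nor cell death was analysed here.

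**Figure D4:**
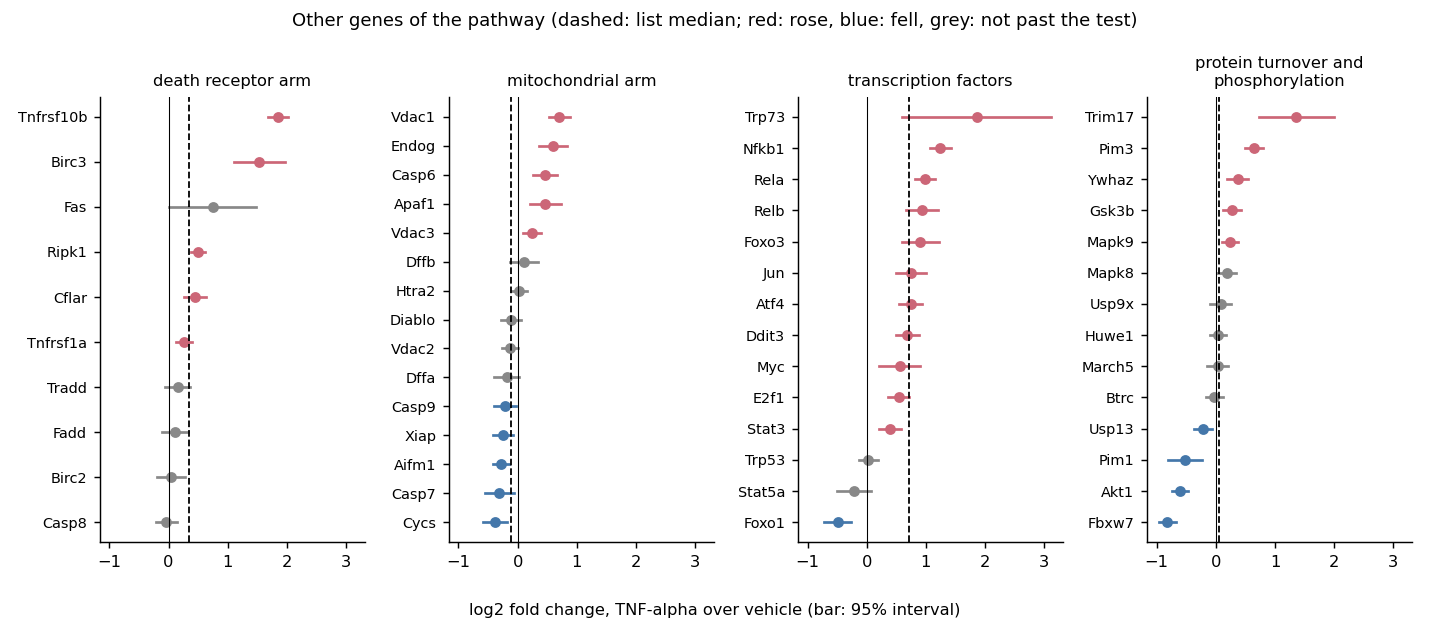
Log2 fold change of TNF-alpha over vehicle with its 95% interval for the tested genes of 4 pathway lists (1 grey gene of the mitochondrial list is not shown), 1 panel per list on a shared horizontal axis, with the median of the whole list as a dashed line. Red points rose, blue points fell and grey points were not past the test, with 5, 5, 11 and 5 risers and 0, 5, 1 and 4 fallers in the death receptor, mitochondrial, transcription factor and protein turnover lists.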

How the data were processed

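RNA was measured in 6 polyadenylated libraries, 3 vehicle and 3 TNF-alpha. Deposited values are estimated counts for each gene: the series text speaks of integers, but 20.15% to 20.97% of a library's values have decimals. The submitters' processing notes name mm10 and GRCm38 as builds, and TopHat2 2.1.1, Bowtie2 2.3.5.1, featureCounts of Subread 2.0.0 and DESeq2 as tools, with no role given. The library kit keeps strand, but whether counting used it, and its other options, was not given in the sources used here.

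Counts were rounded to whole numbers, where the plan had assumed the edgeR test on counts as deposited. Genes were filtered with filterByExpr (edgeR 4.0.16, R 4.3.3), scaled with TMM and tested for TNF-alpha against vehicle with the quasi-likelihood test (robust, group as the only term). Adjustment was Benjamini-Hochberg over 15792 genes with a threshold of 0.05. Each SE was back-calculated from the F value. CPM values are TMM-scaled deposited counts, and exon lengths and positions are from GENCODE M21 on GRCm38. No pair of replicates was a duplicate (chi-square per degree of freedom 23.4 to 71.6). The procedure was run on simulated data in which far fewer genes changed than in these libraries. That run does not show how the procedure performs under a shift this wide.

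The members and lists were chosen with earlier results of these data known. Named genes were the 10 members, tested genes of the wider family, the 2 smallest p per direction of each other list, and Nfkb1, Trp53 and Myog, which gave 36 genes. Another 6, markers, and genes given by few values were named after their values were seen. Results were recomputed with upper-quartile and median-ratio scaling, 2 other filters, DESeq2 1.42.0, limma-voom (limma 3.58.1), no robust estimation, a replicate block, gene length and leaving out each library. Promoters were searched over 250 bases before RefSeq starts on both strands. No protein sequences were used here. One gene of the mitochondrial list is counted there and not reported here by itself.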

Additional observations from a re-analysis of the deposited data

How the results depend on the processing

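The 7 members called with counts in both groups kept direction and call under all 14 alternatives, with a highest adjusted p of 0.0219 (Bak1). Bcl2a1b was called in the 13 that tested it and was removed by the filter of 50 counts in 3 libraries. Its vehicle libraries had 0 counts, and only the TNF-alpha libraries took it past the main filter. Its calls under the alternatives are therefore no further support for a rise. Pmaip1 ranged from -0.46 to -0.14 and Bid from -0.26 to -0.13 (log2) without 1 library, each passing the test in 1 of these. Without 1 library the number fallen ranged from 2 to 4 in the wider family and from 2 to 5 in the mitochondrial arm. The share of Bid in the BH3-only sum, -0.303 points, ranged from -2.99 to 2.64 without 1 library and has no stable sign. With the longest transcript as gene length the share difference was 4.35 points for Bcl2l1 and 10.7 for Bcl2l11, from 3.19 and 8.70. Bik ranged from -0.49 to 0.025 without 1 library. Trp53 reversed to -0.0041 with upper-quartile scaling and ranged from -0.040 to 0.060 without 1 library. The cause was not tested.

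Deviations of same-numbered libraries from their group means had correlations of 0.067, -0.071 and -0.065, and the other pairs ranged from -0.047 to 0.11. With 3 libraries per group, these values cannot tell whether the numbers mark a shared batch. With the replicate block the number fallen was 3 in the mitochondrial arm and 2 among transcription factors, 8486 genes were called in all, and no member changed its call. Depth limits Bcl2a1b and its copies, with at most 14.7 counts a library.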
